A study of Mus musculus with 16 samples.

Results

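The genes described here are 41 genes of the early secretory pathway, the set of membranes and enzymes through which a cell makes, folds and exports proteins. They were taken by symbol from the gene index of the libraries as a list of pathway genes drawn up with earlier results of these data known, and all 41 of 41 symbols were found among 48440 genes. By role they comprise 11 chaperones and lectins, 5 disulfide enzymes, 7 parts of the translocon, 4 subunits of signal peptidase, 4 subunits of the oligosaccharyltransferase, 4 regulators of the unfolded protein response (UPR), 2 factors of ER-associated degradation and 4 transport and retrieval proteins.

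Proteins bound for the cell surface or the outside enter the endoplasmic reticulum (ER) through the Sec61 channel, lose their signal peptide, receive glycans and are folded by chaperones and disulfide isomerases before coated vesicles carry them on. When folding falls behind, sensors in the ER membrane start the unfolded protein response, whose transcription factors XBP1, ATF6 and ATF4 raise the genes of this machinery. In lymph nodes the pathway is best known from plasma cells, which depend on XBP1 for antibody secretion, while fibroblastic reticular cells and lymphatic endothelial cells (LECs) use the same machinery to export matrix proteins and chemokines.

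The libraries came from inguinal lymph nodes of 8-week-old C57Bl/6 mice, and single cells were enriched for podoplanin (PDPN), a surface protein of fibroblastic cells and LECs, before 10x Genomics 3′ sequencing. Naive mice without an inoculum gave 4 libraries. The other mice received 500000 MC38 cells, an established mouse colon carcinoma line, under the skin of 1 flank, either alive or fixed with paraformaldehyde, and nodes were taken on day 12. The node draining the site and the contralateral node gave 3 libraries each for live cells (live draining, live non-draining) and 3 each for fixed cells (fixed draining, fixed non-draining). The paper lists 3 mice for each inoculum, with both nodes collected. The labels give letters A to C but do not say which nodes came from 1 mouse, so the main tests did not pair nodes. The p-values therefore measure the spread between these libraries, which may in part be technical. The fixed inoculum is a source of tumor antigen without growth, and a contralateral node of a tumor-bearing animal is not an untreated node, so naive nodes served as a further reference.

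Of 68741 barcodes, 50386 passed the filters (200 to 6000 genes, at most 30% mitochondrial counts), and 37114 were assigned to a cell type by marker genes, none of which is a member. Unique molecular identifiers (UMIs) were summed per library and type. The gate gave 10906 fibroblastic cells, 9818 LECs, 641 blood endothelial cells (BECs), 4599 B cells, 435 plasma cells, 1637 T cells, 4122 dendritic cells and 3397 macrophages and monocytes. Levels are given as CPM, the UMIs of a gene scaled to a common library total. Among genes held out of the gate, Sparc, a matrix protein, stood at 2639 CPM in the fibroblastic sum against 7.72 CPM for the endothelial gene Pecam1. Sparc was not confined to that sum, and LECs had 991 CPM of it beside 644 CPM of Pecam1. The held-out fibroblastic genes Bgn and Col5a1 had 2283 and 252 CPM in fibroblastic cells against 230 and 9.20 CPM in LECs. Mzb1, a plasma cell chaperone, stood at 5414 CPM in plasma cells against 383 CPM in B cells, with immunoglobulin UMIs left out of the totals. Library totals ran from 7486725 to 48945961 UMIs, highest in the live draining group. Of 50053 distinct barcode sequences, 330 occurred in more than 1 library and at most 10 were shared by a pair. Live draining libraries held 918 to 1293 fibroblastic cells, live non-draining 262 to 573 and fixed non-draining 147 to 260. Among the live non-draining libraries, C gave the lowest fibroblastic level of many members, and the larger of these changes are also given without it.

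In fibroblastic cells 18 of the 41 members were higher and 2 lower in live draining than in live non-draining nodes at an adjusted p under 0.05, where 25.1% of the 14845 genes tested were called (13.5% higher and 11.6% lower). All 41 members passed the filter on low counts in fibroblastic cells and in LECs. The median log2 fold change of the members was 0.14, beside -0.005 for all genes, and 30 of the 41 were positive. In LECs 27 members were higher and 1 was lower, where 33.9% of 14085 genes were called (18.6% higher and 15.3% lower), with a median of 0.24 and 33 positive. Of the members higher in fibroblastic cells, 16 were also higher in LECs, which is 88.9% of the first list and 59.3% of the second. These were Calr, Ddost, Dnajb11, Hspa5, Kdelr3, Manf, Ostc, P4hb, Pdia6, Sdf2l1, Sec61a1, Sec61b, Spcs1, Spcs2, Ssr2 and Ssr4. Both cell types came from the same libraries and are not independent of each other. The overlap of calls over all genes was not counted, so the 88.9% and 59.3% have no base to be read against. Summed over all 41 members, the share of UMIs without immunoglobulin was 0.932%, 0.942% and 0.935% in the live draining fibroblastic libraries against 0.828%, 0.834% and 0.783% in the live non-draining ones. For LECs the corresponding shares were 0.824%, 0.827% and 0.812% against 0.745%, 0.685% and 0.695%. Neither pair of groups overlapped. With at most 50 cells drawn per library the counts fell to 2 members in fibroblastic cells and 4 in LECs.

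The elements through which UPR factors are known to raise ER genes are shown here for the members whose promoters hold one. Any part of these elements in the changes above was not tested. RefSeq (GRCm38.p6) gave promoter sequence for 31 of the 41 members, and the 250 bases before the transcription start were searched on both strands. The ER stress element (ERSE, CCAAT, any 9 bases, CCACG) occurred in 7 of the 31 members (22.6%) and in 0.13% of the 27025 genes with sequence. Its holders were Hspa5, Hsp90b1, Calr, Canx, Creld2, Dnajc3 and Pdia6, and Hsp90b1 held 2 copies. The members were listed as ER genes, and such elements are known from ER genes. A higher share of an element among the members is therefore not an independent result. All sequences run 5′ to 3′ in the direction of the gene, capitals mark the 2 fixed parts of the element or of its reverse complement, and positions count back from the RefSeq start.
Hspa5 (chr2:34772015-34772053, + strand): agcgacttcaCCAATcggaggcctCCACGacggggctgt
Calr (chr8:84847065-84847103, - strand): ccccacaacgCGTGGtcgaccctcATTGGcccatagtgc
Pdia6 (chr12:17266481-17266519, + strand): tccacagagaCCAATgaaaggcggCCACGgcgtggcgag
Creld2 (chr15:88819510-88819548, + strand): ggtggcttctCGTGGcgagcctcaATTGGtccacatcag
Canx (chr11:50325790-50325828, - strand): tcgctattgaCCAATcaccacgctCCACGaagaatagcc
Dnajc3 (chr14:118937817-118937855, + strand): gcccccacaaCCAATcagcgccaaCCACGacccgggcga
Hsp90b1 (chr10:86705523-86705666, - strand): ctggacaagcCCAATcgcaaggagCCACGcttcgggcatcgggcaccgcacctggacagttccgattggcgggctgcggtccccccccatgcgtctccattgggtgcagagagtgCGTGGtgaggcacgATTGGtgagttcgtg

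The printed stretch of Hspa5 spans bases -75 to -37, that of Calr -172 to -134 and that of Pdia6 -108 to -70, and these 3 genes were higher in both stromal types. Hsp90b1 and Creld2 were called higher in fibroblastic cells and Canx and Dnajc3 in LECs. Of all 41 members, 16 were higher in both types, 18 in fibroblastic cells and 27 in LECs. Whether holders of the element differed from the other members was not tested. The related ERSE-II (ATTGGNCCACG) was found only in Herpud1 among the members (3.23%, against 0.037% of all genes). The core of the UPR element (TGACGTGG) was present in Kdelr3 and Sec24d (6.45%, against 0.603%). Herpud1 also held the only match among the members to the C/EBP-ATF response element (TGATGNAA), a site of ATF4 (3.23%, against 3.91%). The shorter CCACG, which forms part of ERSE, ERSE-II and the complement of the UPR element core, was present in 20 of 31 members (64.5%) and in 31.0% of genes. Capitals below mark the ERSE-II of Herpud1 without its free base and the UPR element core of the other pair, read on the reverse strand in Kdelr3.
Herpud1 (chr8:94386367-94386397, + strand): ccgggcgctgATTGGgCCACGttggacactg
Kdelr3 (chr15:79516368-79516395, + strand): ggccgccccgCCACGTCAccgcgcggcc
Sec24d (chr3:123267460-123267487, + strand): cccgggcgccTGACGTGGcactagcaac
Such a match is a run of letters and not a measured binding site.

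Among the chaperones and lectins, 7 of 11 were higher in live draining fibroblastic cells and 1 lower, and in LECs 7 were higher and none lower. Manf, an ER-resident factor that assists folding and can be secreted under stress (chr9:106838312-106891979, - strand in GRCm38), stood at 292, 308 and 304 CPM in live draining and 220.0, 249.9 and 174 CPM in live non-draining fibroblastic libraries. CPM here are scaled between libraries of a type by the trimmed mean of M-values. The 4 naive libraries had 232, 227, 212 and 210.5 CPM, the fixed draining ones 222, 227 and 225 and the fixed non-draining ones 231, 222 and 223. The 3 live draining libraries lay above all 13 others. The log2 fold change against live non-draining was 0.49 ± 0.07 (± SE, adjusted p 6.97e-06, edgeR), and 0.37 without live non-draining C.

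Manf was also the member with the smallest p in LECs, with 298, 320.3 and 306 CPM in live draining, 202, 171 and 186 CPM in live non-draining and 186, 212, 182 and 185 CPM in naive libraries. In fixed draining LECs it stood at 193, 187 and 197 CPM and in fixed non-draining LECs at 201, 194 and 185 CPM. Again no library of another group reached the live draining ones, and the log2 fold change was 0.72 ± 0.06 (adjusted p 5.21e-11).

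Hspa5 encodes BiP, the major Hsp70 chaperone of the ER lumen and a standard reporter of the UPR (chr2:34771970-34777547, + strand). Fibroblastic levels were 869, 883 and 872 CPM in live draining and 663, 746 and 714 CPM in live non-draining libraries. The naive libraries lay at 751, 695, 697 and 673 CPM. Live draining values were tightly grouped above both references, with a log2 fold change of 0.31 ± 0.06 against non-draining (adjusted p 0.000362). For LECs the values were 816, 815 and 771 CPM against 589.8, 532 and 568 CPM, a log2 fold change of 0.51 ± 0.06 (adjusted p 4.88e-08), and the groups did not overlap.

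Dnajb11, a co-chaperone of BiP, had 82.99, 79.8 and 82.5 CPM in live draining fibroblastic libraries and 61.8, 65.1 and 51.7 CPM in live non-draining ones (log2 0.45 ± 0.08, adjusted p 5.07e-05). Its LEC difference was 0.47 ± 0.09 on the log2 scale (adjusted p 9.36e-05). The lectin chaperone calreticulin (Calr) rose by a log2 0.34 ± 0.08 in fibroblastic cells and 0.46 ± 0.07 in LECs. Sdf2l1, a partner of the BiP cycle, rose by 0.35 ± 0.08 and 0.46 ± 0.10. Creld2, a UPR target, was called in fibroblastic cells alone (0.47 ± 0.09, adjusted p 0.000164), and its LEC value was 0.23 ± 0.10 with an adjusted p of 0.0885. Hsp90b1, which encodes the Hsp90 of the ER, GRP94, was close to the threshold in fibroblastic cells (0.17 ± 0.07, adjusted p 0.0491) and had an adjusted p of 0.117 without live non-draining C. Whether Creld2 or Hsp90b1 responded differently in the 2 cell types was not tested.

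The calnexin gene Canx and the BiP co-chaperone Dnajc3, an inhibitor of eIF2α kinases, were called higher in LECs (0.14 ± 0.05 and 0.16 ± 0.05). The Canx call held in 3 of 14 alternative settings and its adjusted p went from 0.0396 to 0.099 without live non-draining C, while the Dnajc3 call held in 9 of 14. Their fibroblastic values were 0.05 ± 0.06 and -0.01 ± 0.06, with adjusted p of 0.566 and 0.915. Hyou1, a nucleotide exchange factor of BiP, was called in neither type. Dnajb9, a co-chaperone that tunes IRE1, moved the other way in fibroblastic cells, with 47.8, 48.5 and 48.8 CPM in live draining and 57.9, 64.8 and 56.05 CPM in live non-draining libraries. All 3 live draining values were below all 3 others, and the log2 fold change was -0.29 ± 0.08 (adjusted p 0.0053).

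**Figure D1:**
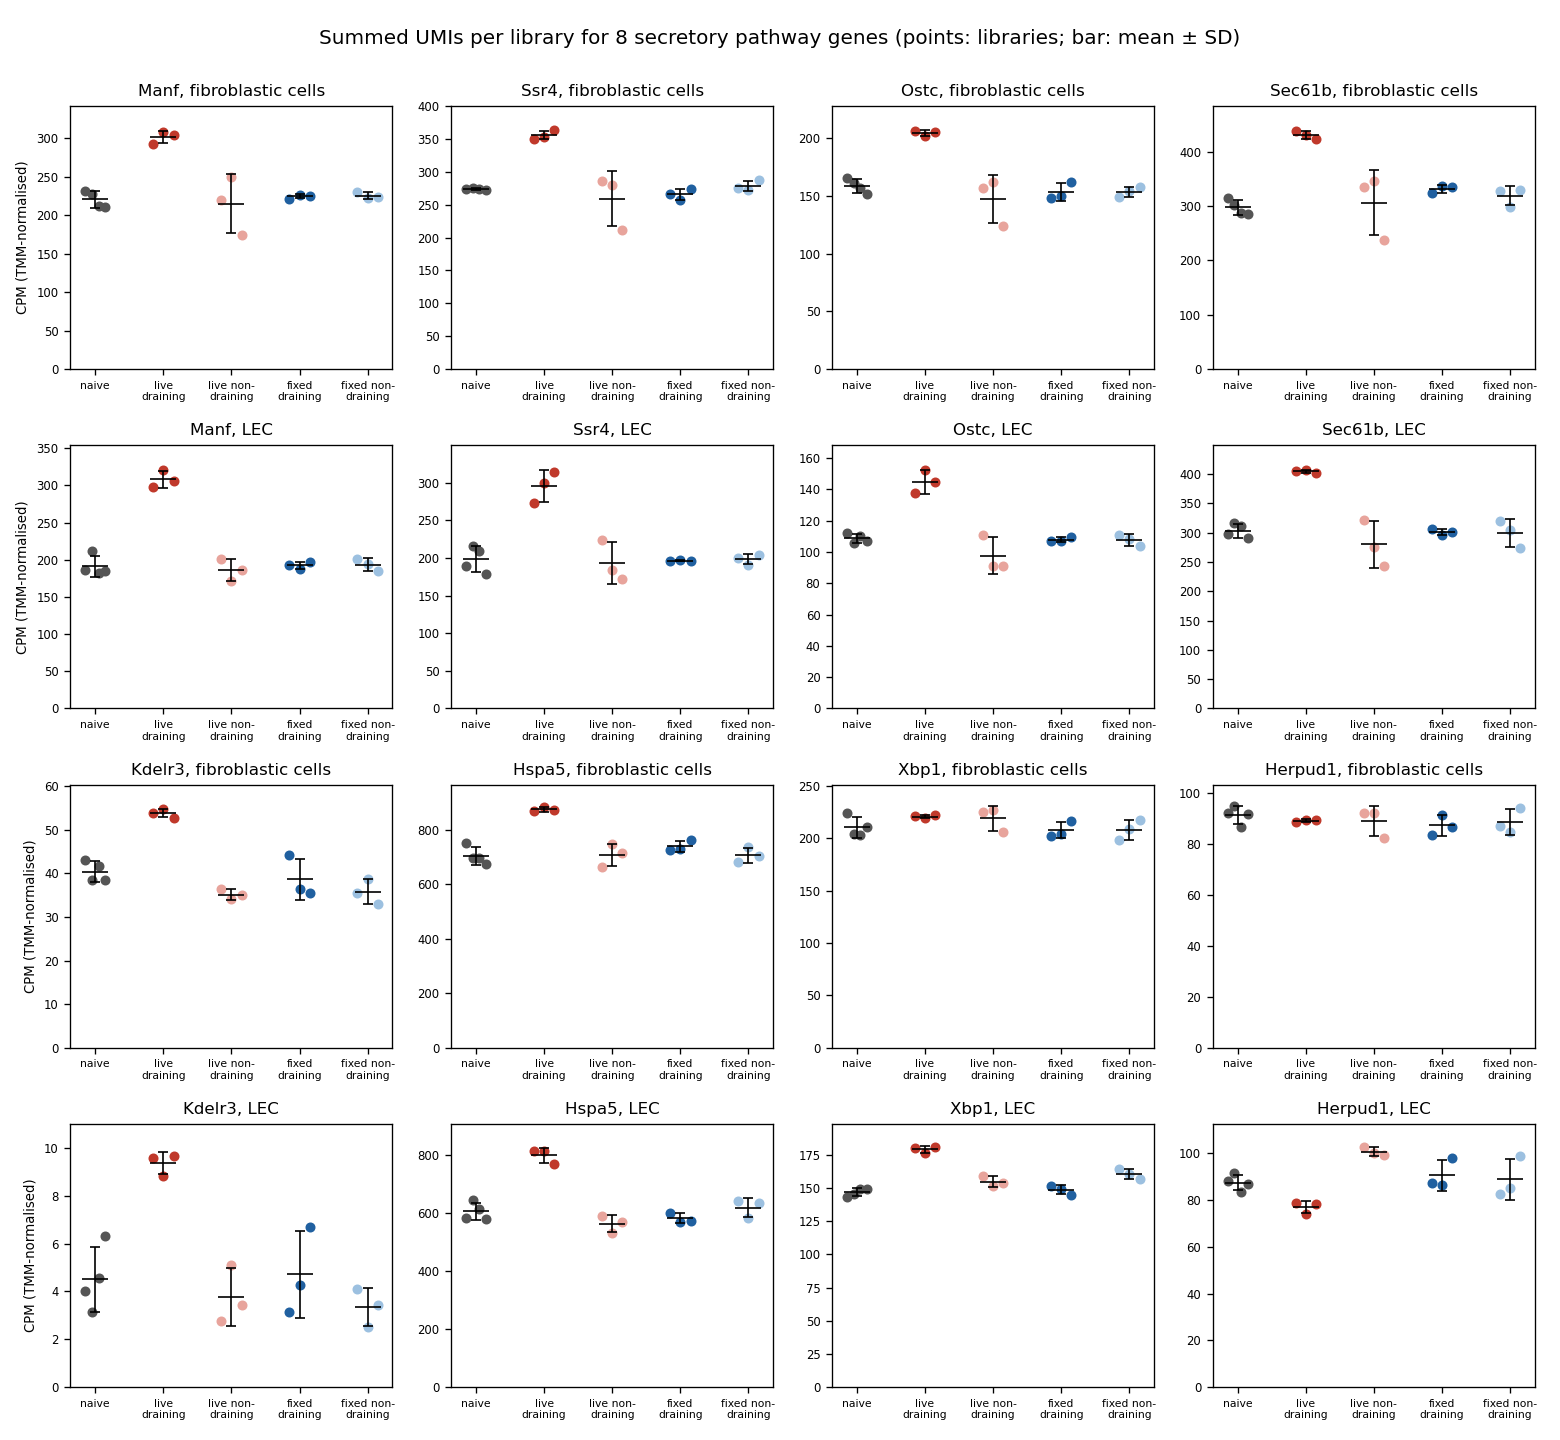
Levels of 8 members in fibroblastic cells and LECs, as CPM from 0 on the vertical axis. Each point is a library, bars give the mean ± SD of a group, and Manf, Ssr4, Ostc, Sec61b and Hspa5 show the live draining libraries above the other groups, whereas Xbp1 of fibroblastic cells and Herpud1 do not.

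Disulfide enzymes introduce and rearrange the disulfide bonds of folding proteins. Of 5, 2 were higher in fibroblastic cells and all 5 in LECs. Pdia6 had 358, 364 and 369 CPM in live draining and 289.6, 299 and 260.5 CPM in live non-draining fibroblastic libraries (log2 0.36 ± 0.06, adjusted p 2.37e-05). No live non-draining library reached the live draining ones, and the value was 0.31 without live non-draining C. P4hb, the archetypal isomerase PDI, rose by 0.23 ± 0.06 in fibroblastic cells and 0.18 ± 0.06 in LECs. The LEC calls further included Pdia3, which acts on glycoproteins with calreticulin, at 0.39 ± 0.06, and Pdia4 at 0.30 ± 0.07. Ero1l, the oxidase that recharges PDI, completed the group at 0.29 ± 0.11 with an adjusted p of 0.04, and its 2 LEC groups overlapped (36.7 to 48.7 and 31.4 to 41.9 CPM). In LECs the Ero1l call held in 5 and the P4hb call in 7 of 14 alternative settings.

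The translocon moves nascent chains across the ER membrane. Of its 7 members here, 4 were higher in fibroblastic cells and the same 4, Sec61a1, Sec61b, Ssr2 and Ssr4, in LECs. Ssr2, a subunit of the translocon-associated protein complex (chr3:88575876-88588419, + strand), gave the smallest p of the members in fibroblastic cells. Its levels there were 197, 194 and 203 CPM in live draining, 140.5, 149 and 106 CPM in live non-draining and 149.9, 152, 149 and 143 CPM in naive libraries. With fixed cells the values were 129, 125 and 132 CPM in draining and 129, 126 and 137 CPM in non-draining nodes. The live draining libraries stood above the 13 others, with a log2 fold change of 0.58 ± 0.07 (adjusted p 7.92e-08), and live non-draining C was the lowest, without which the value was 0.46. The LEC levels of Ssr2 were 122, 130.2 and 126 CPM against 97.1, 90.3 and 80.3 CPM, without overlap (log2 0.48 ± 0.07, adjusted p 2.4e-06).

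Ssr4, a further subunit of the same complex (chrX:73787028-73790830, + strand), had 350.4, 354 and 363 CPM in live draining and 286, 281 and 211 CPM in live non-draining fibroblastic libraries. This was a log2 fold change of 0.45 ± 0.07 (adjusted p 8.22e-06) and of 0.33 without live non-draining C. LEC values were 272, 299 and 314 CPM against 224, 184 and 172 CPM (log2 0.59 ± 0.08, adjusted p 1.11e-06). In both cell types the groups were apart. Sec61b, the β subunit of the channel (chr4:47474658-47483242, + strand), stood at 438, 430.3 and 423 CPM against 335, 346 and 237 CPM in fibroblastic libraries (log2 0.49 ± 0.09, adjusted p 0.000132, 0.34 without live non-draining C). In LECs it stood at 406, 407 and 402 CPM against 322, 275 and 243 CPM (log2 0.52 ± 0.07, adjusted p 4.67e-07). The live draining libraries were again the higher ones without overlap. The pore subunit Sec61a1 rose less, by 0.19 ± 0.06 in fibroblastic cells and 0.24 ± 0.06 in LECs, and its fibroblastic adjusted p was 0.0899 without live non-draining C.

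Ssr1, Ssr3 and Sec61g were called in neither type. Sec61g, the small γ subunit of the channel, varied within groups more than its partners, from 49.4 to 92.9 CPM among naive fibroblastic libraries, and its log2 difference had an SE of 0.26. Ssr1 and Ssr3 differed by 0.00 ± 0.06 and -0.01 ± 0.06 in fibroblastic cells and by -0.07 ± 0.06 and 0.10 ± 0.06 in LECs.

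Signal peptidase removes the signal peptide. Of its 4 subunits Spcs1 and Spcs2 were higher in fibroblastic cells, and Spcs1, Spcs2 and Sec11c in LECs. The largest of these changes was that of Sec11c, a catalytic subunit, in LECs, with 224, 249 and 246 CPM in live draining and 154, 127 and 119.8 CPM in live non-draining libraries. Naive LECs had 133, 141, 137 and 129 CPM, fixed draining LECs 116, 122 and 128 CPM and fixed non-draining LECs 150.2, 125 and 130.0 CPM. The 3 live draining LEC libraries were above the 13 others, with a log2 fold change of 0.82 ± 0.07 (adjusted p 5.47e-10). The fibroblastic value of Sec11c was 0.14 ± 0.06 and did not pass the test (adjusted p 0.105).

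Spcs1, an accessory subunit, rose in LECs from 174, 147 and 147 CPM to 213, 225 and 227 CPM (log2 0.49 ± 0.06, adjusted p 4.15e-08) and in fibroblastic cells by 0.30 ± 0.06. Spcs2 rose by 0.29 ± 0.07 in fibroblastic cells and 0.26 ± 0.06 in LECs. Spcs3, which the enzyme needs for activity, differed by 0.12 ± 0.07 and -0.01 ± 0.07 and passed the test in neither type.

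The oligosaccharyltransferase attaches glycans to asparagine residues. Ostc and Ddost were higher in both cell types, Rpn1 in LECs, and Rpn2 in neither. Ostc, a subunit of the complex that works at the translocon (chr3:130695912-130709444, - strand), had 206, 202 and 206 CPM in live draining and 157, 162 and 124 CPM in live non-draining fibroblastic libraries (log2 0.47 ± 0.07, adjusted p 2.4e-06). Without live non-draining C this was 0.36. LEC levels were 137, 152 and 145 CPM against 111, 90.7 and 90.97 CPM (log2 0.54 ± 0.07, adjusted p 6.32e-08), and the groups were apart in both types. Ddost rose by 0.23 ± 0.06 and 0.37 ± 0.08, though its fibroblastic adjusted p was 0.0567 without live non-draining C. Rpn1 differed by 0.19 ± 0.07 in LECs (adjusted p 0.0295), a call that held in 5 of 14 alternative settings and had an adjusted p of 0.0989 without live non-draining C.

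Of the 4 UPR regulators none was higher in fibroblastic cells. Xbp1, whose spliced transcript encodes the factor activated through IRE1 (chr11:5520659-5525893, + strand), had 221, 219 and 222 CPM in live draining, 225, 226 and 205 CPM in live non-draining and 224, 204, 203 and 210.2 CPM in naive fibroblastic libraries. These groups overlapped, and the log2 difference was 0.01 ± 0.06. In LECs Xbp1 was higher, with 180.1, 176 and 181 CPM against 159, 152 and 154 CPM and 143, 146, 149.5 and 149 CPM in naive libraries (log2 0.21 ± 0.05 against non-draining, adjusted p 0.00286). The 3 live draining LEC libraries exceeded all others. The 3′ counts do not separate spliced from unspliced Xbp1.

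Atf6, the membrane-bound factor released by cleavage in the Golgi, was lower in live draining fibroblastic cells, at 37.5, 35.4 and 38.8 CPM against 48.9, 43.2 and 44.3 CPM. The groups were apart and the log2 fold change was -0.31 ± 0.09 (adjusted p 0.00804). LECs had 47.1, 48.1 and 46.1 CPM against 47.2, 47.9 and 55.3 CPM, with overlap and a log2 difference of -0.08 ± 0.10. Atf4, the effector of the PERK branch, differed by -0.02 ± 0.06 in fibroblastic cells, where the live draining libraries had 156, 138 and 153 CPM and the live non-draining ones 153, 145 and 152 CPM. In LECs its values were 191, 173 and 181 CPM against 199.6, 170.0 and 193 CPM (log2 -0.06 ± 0.06). Neither type showed separated Atf4 groups.

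Ddit3 encodes CHOP, a factor induced in prolonged stress. Its fibroblastic levels were 52.4, 55.9 and 54.9 CPM in live draining and 54.4, 58.9 and 54.7 CPM in live non-draining libraries. The corresponding LEC levels were 28.99, 27.2 and 26.1 and 30.04, 15.3 and 19.9 CPM. Overlap was seen in both types, and the log2 differences of -0.04 ± 0.09 and 0.23 ± 0.15 did not pass the test.

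Herpud1, a component of ER-associated degradation and a target of ATF6 and ATF4 (chr8:94386438-94395377, + strand), was the only member called lower in LECs. Live draining libraries had 78.8, 74.2 and 78.2 CPM, live non-draining 103, 100.1 and 99.2, naive 87.96, 91.6, 83.6 and 86.8, fixed draining 87.2, 86.4 and 98.2 and fixed non-draining 82.8, 85.1 and 98.7 CPM. Live draining LECs were thus the lowest of the 5 groups, with a log2 fold change of -0.39 ± 0.07 against live non-draining (adjusted p 3.02e-05). In fibroblastic cells Herpud1 overlapped between the groups, with 88.4, 89.5 and 89.2 CPM and 92.2, 92.2 and 82.2 CPM (adjusted p 0.991). Sel1l, the adaptor of the Hrd1 ubiquitin ligase, was called in neither type.

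KDEL receptors return escaped ER proteins from the Golgi, and Sec23b and Sec24d are coat proteins of export vesicles. All 4 were higher in LECs, and Kdelr3 alone in fibroblastic cells. Fibroblastic Kdelr3 (chr15:79516411-79527739, + strand) stood at 53.9, 54.7 and 52.8 CPM in live draining and 36.4, 34.03 and 34.9 CPM in live non-draining libraries. Naive libraries had 42.95, 38.5, 41.8 and 38.4 CPM. Live draining values were above both, with a log2 fold change of 0.61 ± 0.09 (adjusted p 1.53e-06), and 0.60 without live non-draining C. In LECs the gene was low, at 9.58, 8.82 and 9.68 CPM against 2.77, 5.10 and 3.43 CPM, and the log2 fold change of 1.40 ± 0.28 carried a large error (adjusted p 0.000197). Sec24d rose in LECs by 0.35 ± 0.10, Sec23b by 0.26 ± 0.09 and Kdelr2 by 0.17 ± 0.06, while their fibroblastic values lay between -0.10 and 0.09. The LEC call of Kdelr2 held in 7 of 14 alternative settings.

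**Figure D2:**
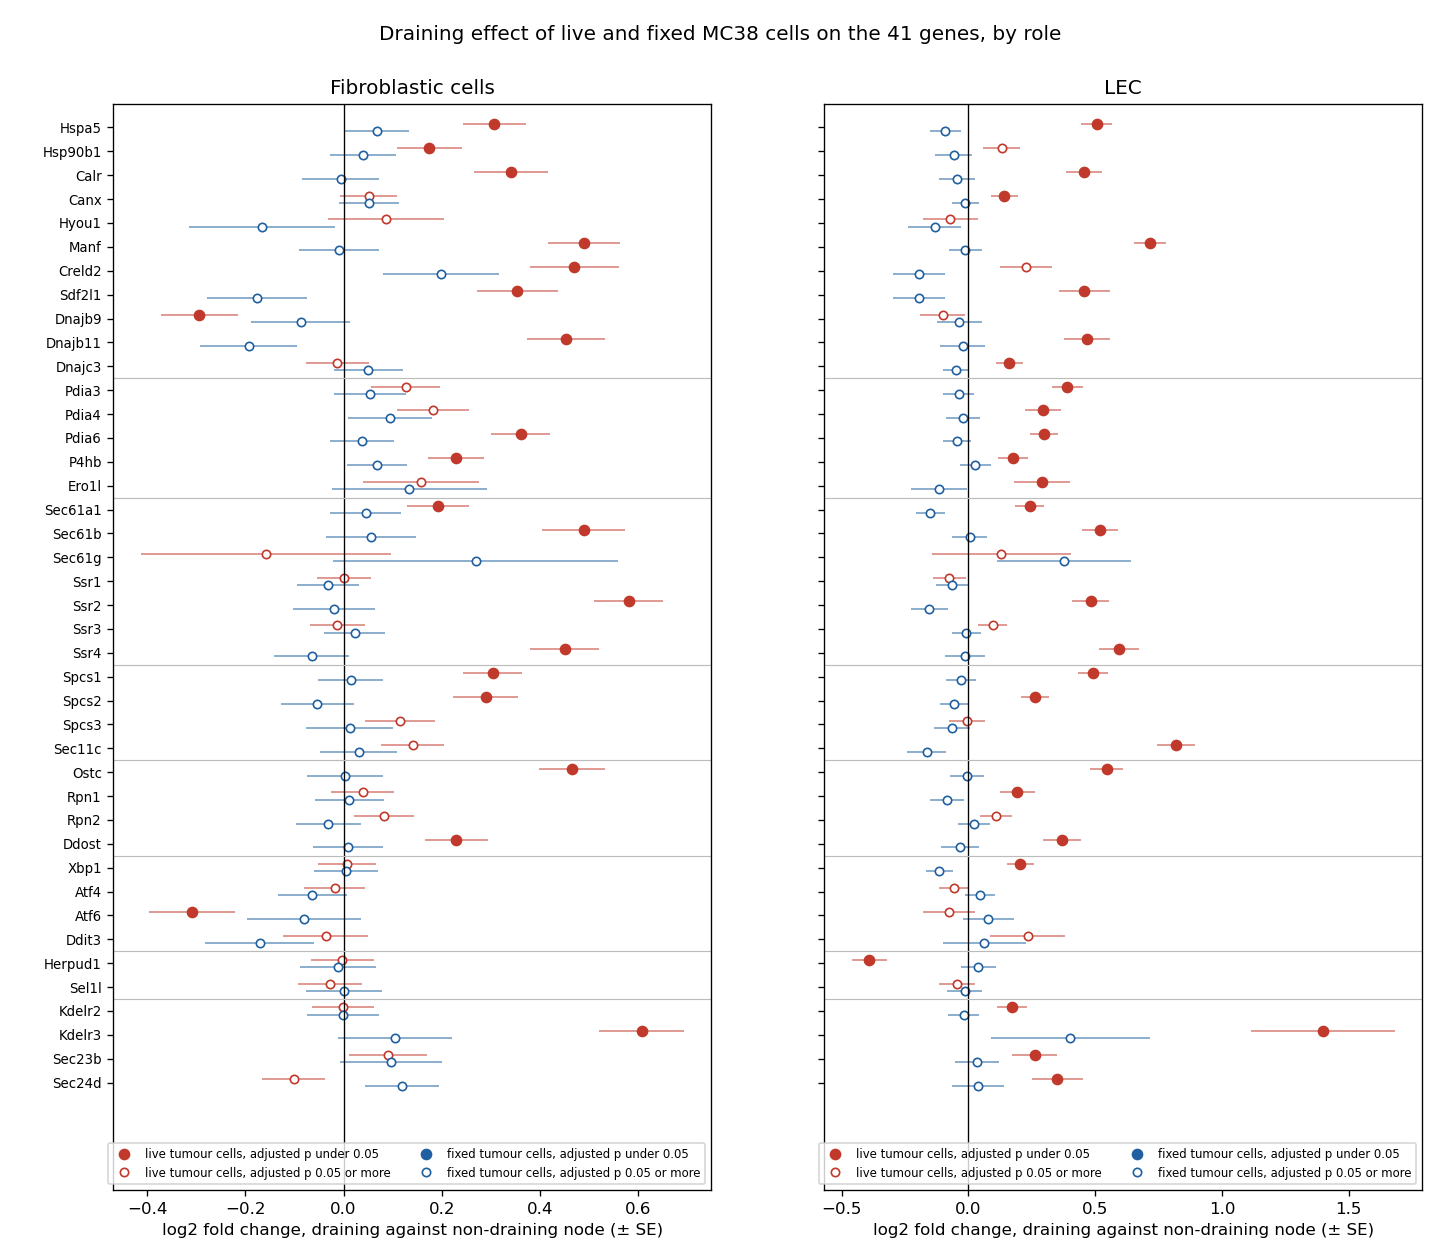
Log2 fold change of draining against non-draining nodes (horizontal axis, ± SE) for the 41 members in fibroblastic cells and LECs, for live and for fixed MC38 cells. Live values reached 0.61 in fibroblastic cells (Kdelr3) and 1.40 in LECs (Kdelr3), while no fixed value passed the test.

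The fixed inoculum asks whether the same nodes respond to tumor material without growth. No member was called between fixed draining and fixed non-draining nodes by edgeR or DESeq2, in either type, where 0.0674% of fibroblastic genes and 1.76% of LEC genes were called by edgeR. At an unadjusted p under 0.05 there were 0 members in fibroblastic cells and 4 in LECs, all 4 lower. The share of all genes at that limit was not counted, so the 4 are not read as a result. The smallest adjusted p values were 0.682 for Dnajb11 and 0.205 for Sec61a1, the latter with a log2 difference of -0.15 ± 0.06. Fixed draining and non-draining values were apart for 3 of 41 members in fibroblastic cells and 5 in LECs, compared with 20 and 27 for live cells. The share of all genes that were apart in this way was not counted, so these counts have no base to be read against.

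Testing the difference itself, the draining effect of live cells exceeded that of fixed cells for 12 members in fibroblastic cells and fell below it for none, where 9.11% of genes were called (4.96% higher and 4.16% lower). These 12 were Ssr2, Dnajb11, Ssr4, Ostc, Manf, Sdf2l1, Pdia6, Spcs2, Kdelr3, Sec61b, Spcs1 and Calr, and all 12 were among the 18 higher in live nodes. The count was 7 without fixed draining B and 7 without fixed non-draining B. The live effect enters both this difference and the comparison above, so the 2 are not independent. For Ssr2 the difference was 0.60 ± 0.11 on the log2 scale (adjusted p 0.000291), for Dnajb11 0.65 ± 0.13 (adjusted p 0.000835) and for Ssr4 0.52 ± 0.10 (adjusted p 0.00102). Fibroblastic Hspa5, with a difference of 0.24 ± 0.09, did not pass (adjusted p 0.0951).

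In LECs 21 members had a larger and 1, Herpud1, a smaller live effect, where 21.5% of genes were called (12.2% higher and 9.24% lower). By role these were 7 of 11 chaperones and lectins, 3 of 5 disulfide enzymes, 4 of 7 translocon members, 3 of 4 signal peptidase subunits, 3 of 4 oligosaccharyltransferase subunits and 1 of 4 UPR regulators, but none of the transport and retrieval genes. Sec11c differed by 0.98 ± 0.11 (adjusted p 5.78e-08), Manf by 0.73 ± 0.09 (adjusted p 1.89e-07) and Hspa5 by 0.60 ± 0.09 (adjusted p 3.38e-06). Xbp1 differed by 0.32 ± 0.08 and Herpud1 by -0.43 ± 0.10.

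Against naive nodes, 16 members were higher and 4 lower in live draining fibroblastic cells, where 36.2% of genes were called (19.2% higher and 17% lower). The 4 lower were Atf6 (-0.29 ± 0.07), Dnajb9 (-0.19 ± 0.06), Ddit3 (-0.18 ± 0.07) and Ssr1 (-0.14 ± 0.05). Of the 16, 15 were also higher against live non-draining nodes, and Sec11c was the other. The smallest p belonged to Ssr2 (0.42 ± 0.06). Manf (0.45 ± 0.07) and Spcs1 (0.36 ± 0.05) followed it, and both naive and live non-draining comparisons share the live draining libraries.
In LECs 24 members were higher and 1 lower than in naive nodes, where 33.9% of genes were called (19.2% higher and 14.7% lower). Manf rose by 0.69 ± 0.06, Sec11c by 0.83 ± 0.07 and Spcs1 by 0.46 ± 0.05, and Herpud1 was lower by a log2 of -0.18 ± 0.06. Creld2 and Ddit3, which did not pass against live non-draining LECs, were higher against naive LECs (0.25 ± 0.09 and 0.46 ± 0.13). Conversely Canx, Dnajc3, Ero1l, Pdia4 and Rpn1 were called against live non-draining but not against naive LECs.

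Within fibroblastic cells, marginal reticular cells (MRCs) lie under the subcapsular sinus and T-zone reticular cells (TRCs) support the T-cell area. Among MRC-like cells 10 members were higher and 3 lower, where 14.5% of 10253 genes were called (775 higher and 713 lower). The 3 lower members were near the share of all genes that were lower. Without live non-draining C the total of members called was 8. Ssr2 had 215, 226 and 210.3 CPM in live draining and 132, 152 and 75.04 CPM in live non-draining MRC-like cells (log2 0.81 ± 0.14, adjusted p 1e-05), and Ssr4 and Ostc rose by 0.65 ± 0.13 and 0.58 ± 0.12. Dnajb9 fell, with 51.6, 49.03 and 49.1 CPM against 72.9, 104 and 97.9 CPM (log2 -0.81 ± 0.17, adjusted p 0.000481). Atf4 was lower as well, at 188, 150.2 and 168 CPM against 219, 269 and 248 CPM (log2 -0.52 ± 0.13, adjusted p 0.00252). Herpud1 had 86.4, 95.3 and 82.5 CPM against 117, 115 and 118 CPM (log2 -0.40 ± 0.14, adjusted p 0.0403). For these 3 lower members no library of one group entered the range of the other. They were called on the same libraries, so this is a description and not further support.

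Among TRC-like cells 5 members were higher and 1 lower, where 7.37% of 11989 genes were called (424 higher and 460 lower). The total of members called was 1 without live draining B and 1 without live non-draining C. The higher ones were Ssr2 (0.49 ± 0.09), Spcs2 (0.30 ± 0.09), Ssr4 (0.28 ± 0.08), Pdia6 and Ostc. Kdelr2 was lower, with 134, 135 and 144 CPM against 148, 193 and 167 CPM (log2 -0.28 ± 0.09, adjusted p 0.0318), a call that held in 6 of 14 alternative settings. The fibroblastic and LEC sums above also differed in makeup, and the part of this in the members' differences was not tested. MRC-like cells made up 15.25% to 18.41% of fibroblastic cells in live draining libraries against 9.779% to 11.83% in live non-draining ones. The share of MedRC-like cells, from the medulla, was 8.12% to 9.21% against 24.1% to 27.4%. PRC-like cells, which lie around vessels, made up 9.36% to 9.91% against 3.05% to 5.68% and FDC-like cells, the follicular dendritic cells, 6.65% to 7.52% against 3.79% to 4.58%. TRC-like cells overlapped, with 22.95% to 25.0% against 24.1% to 28.6%.

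Floor LECs (fLECs) line the inner and ceiling LECs (cLECs) the outer wall of the subcapsular sinus. In fLEC-like cells 13 of 40 members tested were higher and 1 lower, where 22.7% of 10988 genes were called (1383 higher and 1111 lower). Sec11c stood at 411, 446 and 493 CPM in live draining and 268, 206 and 194 CPM in live non-draining fLEC-like cells (log2 0.98 ± 0.09, adjusted p 2.83e-13). Manf rose by 0.67 ± 0.09 and Hspa5 by 0.55 ± 0.08, while Herpud1 was lower, at 102, 100.5 and 109.7 CPM against 138, 127 and 122 CPM (log2 -0.33 ± 0.11, adjusted p 0.0149). These 4 genes, called on the same libraries, showed no overlap between the groups. The share of fLEC-like cells among LECs was itself 22.0% to 24.5% in live draining and 19.7% to 21.4% in live non-draining libraries, while that of cLEC-like cells overlapped (20.7% to 23.6% and 22.0% to 24.8%).
In cLEC-like cells 12 members were higher and 2 lower, where 15.8% of 11311 genes were called (954 higher and 837 lower). The total of members called was 9 without live draining C and 9 without live non-draining A. Ssr4 led with 237, 258 and 276 CPM against 172, 138 and 137 CPM (log2 0.75 ± 0.10, adjusted p 3.32e-08). Sec61b and Manf rose by 0.61 ± 0.09 and 0.56 ± 0.09. The lower pair was Atf4, with 187, 184 and 164 CPM against 248, 194 and 219.8 CPM (log2 -0.33 ± 0.09), and Herpud1, with 51.04, 54.6 and 43.7 CPM against 64.8, 66.2 and 73.3 CPM (log2 -0.43 ± 0.14). Herpud1 was therefore called lower in LECs, in both LEC subsets and in MRC-like cells, which are parts of the same libraries. Of 14 alternative settings the call held in 13 in LECs, 10 in fLEC-like, 7 in cLEC-like and 4 in MRC-like cells.

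Fewer members passed the test in the other types. In T cells 7 of 40 members tested were higher, where 6.25% of 7933 genes were called (344 higher and 152 lower). The count was 3 without live draining B, without live draining C or without live non-draining C. Sec61b had 609, 663 and 702 CPM in live draining and 374, 314 and 322 CPM in live non-draining T cells (log2 0.96 ± 0.14, adjusted p 1.78e-05). Sec11c had 447, 543 and 577 CPM against 282, 296 and 338 CPM (log2 0.77 ± 0.13), and Ssr4 had 291, 297 and 346 CPM against 187, 164 and 162 CPM (log2 0.85 ± 0.17). All 7, with Calr, Manf, Spcs2 and Ddost, showed groups that were apart, as genes called on the same libraries often are. In all, 14 of the 40 members were apart, and the share of all genes that were apart was not counted.

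In plasma cells 3 of 39 members tested were higher, where 2.64% of 3481 genes were called (38 higher and 54 lower). Ssr2 stood at 316, 378 and 428 CPM in live draining and 168, 167 and 138 CPM in live non-draining plasma cells (log2 1.24 ± 0.27, adjusted p 0.00793). Sec61b stood at 1053, 1250.0 and 1221 CPM against 677, 565 and 532 CPM (log2 0.99 ± 0.26, adjusted p 0.0306), and Hsp90b1 at 4263, 6327 and 3989 CPM against 2220.0, 1987 and 2533 CPM (log2 1.11 ± 0.31, adjusted p 0.0452). The groups of these 3 genes were apart. In all, 25 of the 39 members were apart, and the share of all genes that were apart was not counted. The count of members called nevertheless fell to 0 or 1 when any 1 live draining or live non-draining library was left out. It rose to 10 when the fit held those 2 groups alone.

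Macrophages and monocytes had 3 of 40 members higher, where 7.32% of 9954 genes were called (390 higher and 339 lower). The 3 were Sec61b (0.80 ± 0.15), Ssr2 (0.93 ± 0.20) and Ostc (0.45 ± 0.14). For Sec61b the live draining libraries had 731, 641 and 747 CPM and the live non-draining ones 465, 384 and 364 CPM, without overlap. In BECs Ssr4 alone of 37 members tested was higher, where 0.684% of 5704 genes were called (22 higher and 17 lower). Ssr4 had 367, 304 and 367 CPM against 202, 179.7 and 156 CPM (log2 0.94 ± 0.21, adjusted p 0.0311). The BEC count ran from 0 to 4 as single libraries were left out. In B cells 0 of 39 members passed by edgeR, where 1.79% of genes were called, and 4 had an unadjusted p under 0.05 (1 higher, 3 lower). Dendritic cells gave 0 of 40 by edgeR, where 6.36% of genes were called, with 2 at an unadjusted p under 0.05, both higher, and 1 call without live non-draining A. For B cells and dendritic cells the share of all genes at the unadjusted limit was not counted. Over these 8 cell types Sec61b was called higher in 5, and Ssr2 and Ssr4 in 4 each. Differences between cell types in these effects were not tested, and a missing call in a type with few cells does not show that its members did not differ.

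**Figure D3:**
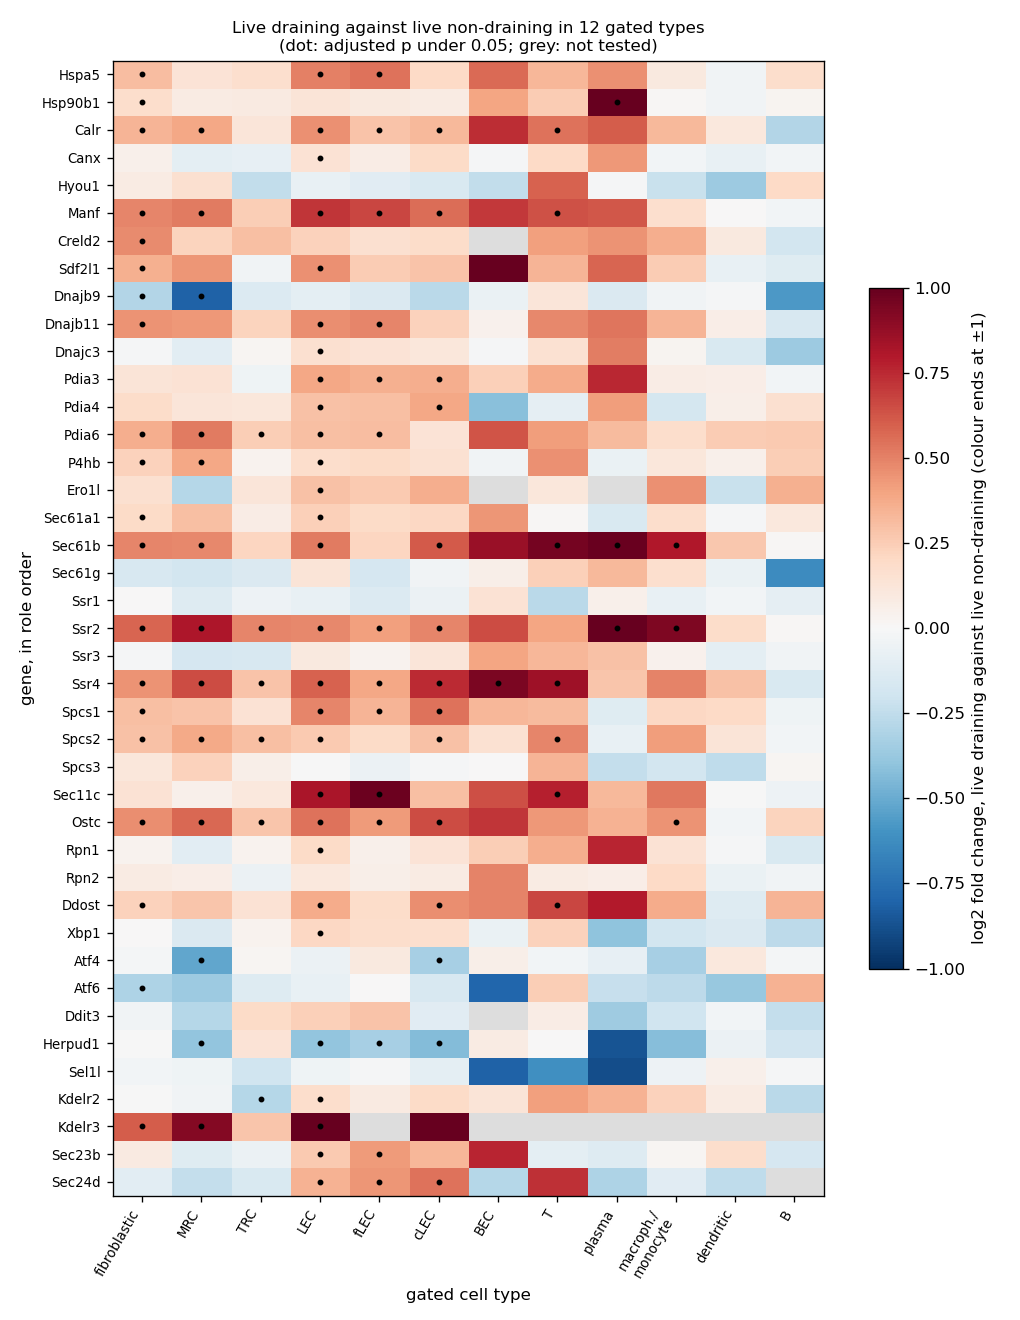
Log2 fold change of live draining against live non-draining nodes (color) for the 41 members (rows) in 12 cell types and subsets (columns), with a dot where the adjusted p was under 0.05. Calls are densest in LECs (28) and fibroblastic cells (20) and absent from B cells and dendritic cells.

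Across cell types, plasma cells devoted the largest share of their transcripts to the pathway. The 41 members took up a median 3.584% of UMIs without immunoglobulin in plasma cells (3.13% to 5.027% over 15 libraries). That share was 4.18%, 5.03% and 4.30% in live draining libraries, 3.46%, 3.48% and 3.40% in live non-draining ones and 3.29% to 4.20% in naive ones, so that naive and live draining libraries overlapped. Fibroblastic cells followed with 0.8393% (0.7833% to 0.9418%, 16 libraries) and LECs with 0.7501%, and B cells and dendritic cells had 0.4299% and 0.4303%. Of 11 types, plasma cells had the highest median level for 37 of the 41 members. The exceptions were Canx in LECs, Ddit3 in mast cells, Kdelr3 in fibroblastic cells and Ero1l in T cells.

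Hspa5 had a median of 2176 CPM in plasma cells (1469 to 4299), on the scale that leaves immunoglobulin out. Next were fibroblastic cells at 728 CPM (654 to 875), macrophages and monocytes at 633 CPM (417 to 847), LECs at 602 CPM (537 to 775) and pericytes at 563 CPM (442 to 752), whose ranges overlap. Mast cells had 410.2 CPM, BECs 405 CPM, NK cells 391 CPM, T cells 346 CPM, B cells 287 CPM and dendritic cells 261 CPM. Only the plasma cell range was clear of all others. Kdelr3 had a different order, with a median of 38.9 CPM in fibroblastic cells (32.9 to 54.2), 24.6 CPM in pericytes, 7.69 CPM in plasma cells and 4.23 CPM in LECs. Its median was 0 in BECs, B cells, T cells, NK cells and mast cells. Several of these types had few UMIs per library, such as 16265 to 33283 in live draining mast cells. A median of 0 there cannot be told from a low level. Genes whose levels over the 11 types resembled Hspa5 most were other members: Hsp90b1 (Pearson r = 0.978 on log2 CPM), Pdia6 (0.975), Calr (0.973), Rpn1 (0.961) and Ssr1 (0.960), out of 7537 genes, as a description over types that share libraries.

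**Figure D4:**
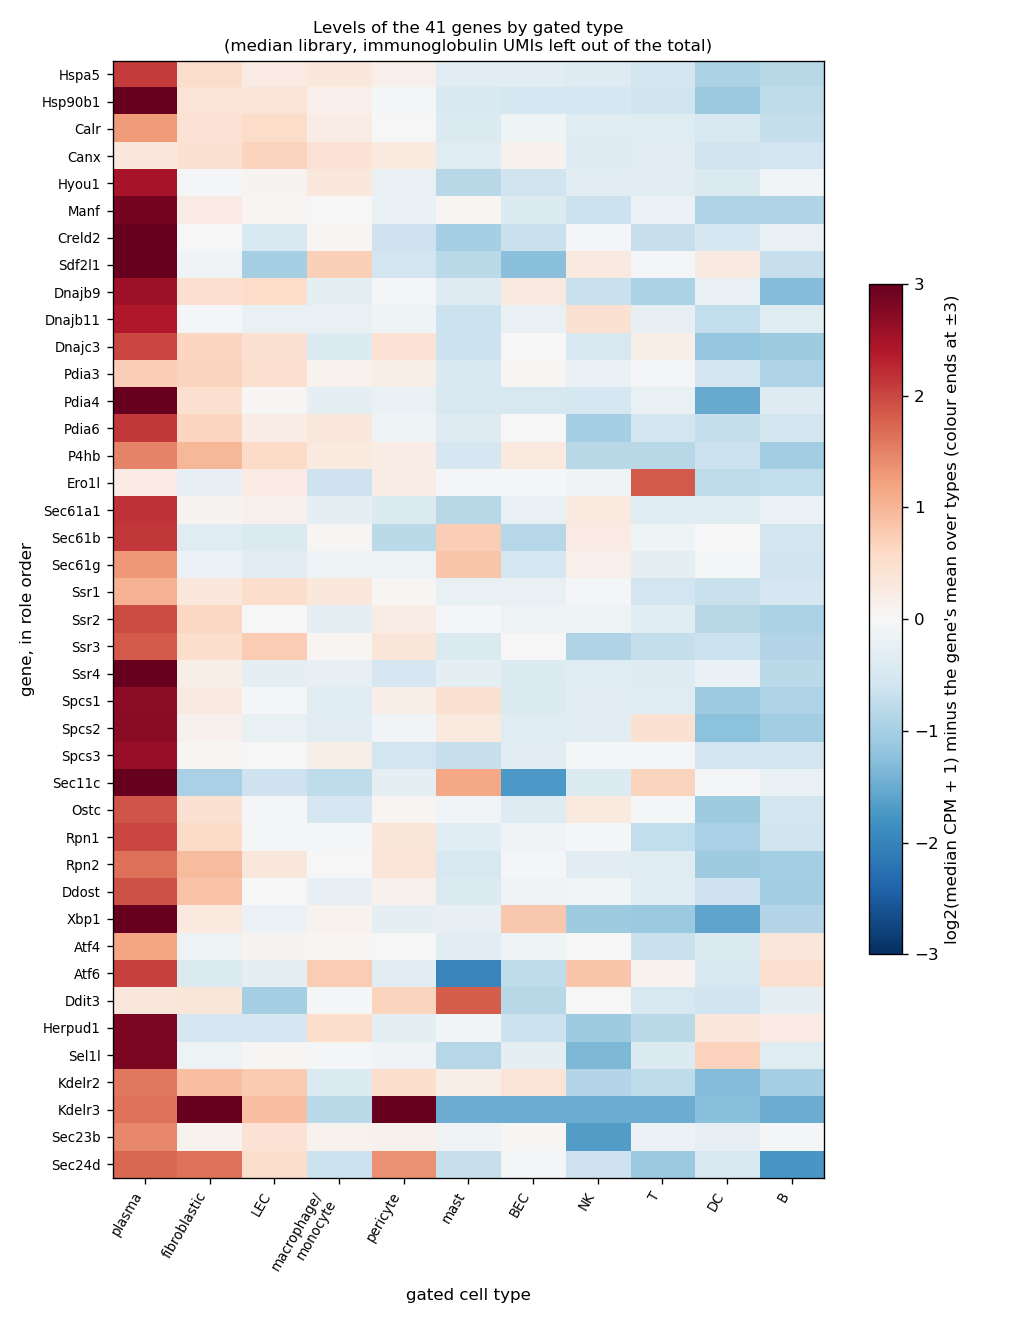
Median level of each member in 11 cell types, as log2(CPM + 1) minus the mean of that gene over the types, with immunoglobulin UMIs left out of the total. The plasma cell column is the highest for 37 of 41 members, and Kdelr3 peaks in fibroblastic cells.

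Set against B cells of the same 15 libraries, plasma cells were higher for all 40 members tested, where 32.2% of 6529 genes were called higher and 31.7% lower. Kdelr3 did not pass the filter. The median log2 fold change of the members was 3.04, beside -0.04 for all genes. Levels in this comparison are CPM scaled across the 2 types with immunoglobulin included. Xbp1 had the largest fold, with a median of 2321 CPM in plasma cells (1811 to 3614) and 59.8 CPM in B cells (43.8 to 84.4), a log2 fold change of 5.31 ± 0.11. Creld2 followed at 5.02 ± 0.13 (634 against 22.3 CPM), then Ssr4 at 4.48 ± 0.12 (2032 against 87.5 CPM) and Sdf2l1 at 4.47 ± 0.13 (435 against 22.4 CPM). Hsp90b1 differed by 4.33 ± 0.14 (4389 against 237 CPM) and Dnajb9 by 4.26 ± 0.15 (170.6 against 8.67 CPM). Apart from Ero1l and Ddit3, each higher in 14 of the 15 libraries, all were higher in 15 of 15. The smallest folds were those of Canx (1.26 ± 0.11), Atf4 (1.15 ± 0.10) and Ddit3 (0.79 ± 0.18).

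Fibroblastic cells exceeded LECs for 30 members and fell below them for 5, with library as a block, where 42.5% of 14144 genes were higher and 39.3% lower. Kdelr3 (3.15 ± 0.10), Ddit3 (1.51 ± 0.07), Sec24d (1.22 ± 0.05), Sdf2l1 and Ddost (1.02 ± 0.03) led the first direction. Ero1l (-0.42 ± 0.05), Sec11c (-0.33 ± 0.07), Sec23b, Atf4 and Ssr3 made up the second. Sec24d is the coat subunit known for collagen export.

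A further 121 genes of the pathway in 7 groups were counted in the same fits. In live draining fibroblastic cells 37 of 114 tested were higher and 4 lower, with a median log2 of 0.11, beside 13.5% higher, 11.6% lower and a median of -0.005 over all genes. In LECs 48 of 115 were higher and 6 lower, with a median of 0.17, beside 18.6%, 15.3% and -0.0003 over all genes, and none was called in either type after fixed cells by edgeR. Prdx4, a peroxidase that supplies disulfides, rose by 0.59 ± 0.07 in fibroblastic cells, and Ppib, a prolyl isomerase needed for collagen folding, by 0.58 ± 0.08 there and 0.62 ± 0.07 in LECs. Ost4 and Dad1, subunits of the oligosaccharyltransferase, rose by 0.50 ± 0.06 and 0.42 ± 0.05 in LECs. The group of UPR sensors and effectors held 2 higher and 3 lower of 15 in fibroblastic cells, and 2 higher and 5 lower of 16 in LECs. Beside the shares of all genes just given, the higher genes were near in fibroblastic cells and below in LECs. The lower genes were above in both types (3 of 15 and 5 of 16). These differences rest on few genes and were not tested. All called genes of this group are named here, some of them after their values were seen. Eif2s1, which encodes eIF2α, was higher in both types (0.34 ± 0.08 and 0.64 ± 0.09), Asns, which encodes asparagine synthetase, in fibroblastic cells (0.99 ± 0.35) and Creb3, a membrane-bound transcription factor, in LECs (0.48 ± 0.09). Ern1, which encodes IRE1α, was lower in both types (-0.29 ± 0.08 and -0.23 ± 0.09), as was Stc2 (-1.15 ± 0.17 and -0.30 ± 0.09). Creb3l2 was lower in fibroblastic cells (-0.20 ± 0.07). Lower in LECs were Ppp1r15a, which encodes the eIF2α phosphatase subunit GADD34 (-0.51 ± 0.06), Trib3, a target of CHOP (-0.57 ± 0.16), and Mbtps2, a protease that cleaves ATF6 (-0.38 ± 0.11). Against B cells, 96 of 102 such genes tested were higher and 2 lower in plasma cells, with a median of 1.97, beside 32.2%, 31.7% and -0.04 over all genes.

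Several measures moved with the live draining result, and their part in it was not tested. Genes with short transcripts were higher: the median log2 of all genes in fibroblastic cells was 0.10 for transcripts under 1 kb, 0.10 for 1 to 2 kb, -0.01 for 2 to 4 kb and -0.08 from 4 kb. Members followed that order except that the second class was above the first, with medians of 0.30 (5 genes), 0.35 (9 genes), 0.18 (20 genes) and 0.0001 (7 genes), and each class lay above the genes of like length. In LECs the genes' medians were 0.14, 0.14, -0.002 and -0.10, and the members' 0.52, 0.23, 0.26 and -0.04. Across the 41 members Spearman's rho of length with the log2 fold change was -0.444 in fibroblastic cells and -0.525 in LECs, beside -0.168 and -0.205 over all genes with a length, which are not independent replicates. Those longest members, Atf6, Canx, Dnajc3, Ero1l, Hyou1, Sel1l and Ssr1, include none that was higher in fibroblastic cells and 3 that were higher in LECs.

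Of 18 dissociation and stress genes, 13 were lower and 1 higher in live draining fibroblastic cells (median log2 -1.01), and 15 lower and 1 higher in LECs (-1.31). In fixed draining LECs 11 were higher and none lower (0.34). UMIs per fibroblastic cell numbered 10250 to 11030 on average in live draining libraries against 9048 to 10680 in live non-draining ones, and per LEC 10830 to 12010 against 7958 to 8512. CPM are shares of the RNA captured, so a rise in a share and a fall in the rest cannot be told apart.

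The summed level of 14 plasma cell markers was higher in live draining libraries, whereas the abundant immunoglobulin transcripts Jchain and Igkc overlapped between the groups. The 14 include Jchain and heavy chain genes, and also Prdm1, Irf4 and Sdc1. Of these, Sdc1 stood at 9.31 CPM in the fibroblastic sum, so the 14 may not measure plasma cell RNA alone. Mzb1, also among the 14, was low but higher in live draining LECs without overlap. It had 3.48, 3.98 and 2.30 CPM there against 2.03, 0.79 and 0.69 CPM in live non-draining LECs. In fibroblastic cells Mzb1 overlapped, with 2.65, 2.08 and 3.10 CPM against 2.15, 0.73 and 1.01 CPM. The 14 markers stood at 71.4 to 87.8 CPM in live draining and 21.1 to 61.5 CPM in live non-draining fibroblastic sums, and 157 to 171 against 64.2 to 114 CPM in LECs. Jchain, the joining chain of secreted antibody, overlapped between the groups (9.59 to 12.6 and 3.21 to 20.1 CPM in fibroblastic cells, 8.68 to 13.9 and 5.95 to 21.5 CPM in LECs). Igkc, the κ light chain, had 107 to 154 CPM in live draining against 45.4 to 329 CPM in live non-draining fibroblastic cells, and 96.1 to 145 against 47.97 to 195 CPM in LECs. For both genes the highest value belonged to live non-draining A. A scaling of plasma cell RNA by the mean Jchain levels gave 2.6% as the largest part of a called member's rise in fibroblastic cells. The corresponding value in LECs was 2.76%. These values depend on Jchain, whose live non-draining means are raised by library A (20.1 and 21.5 CPM), and are no upper limit. A scaling by the 14 markers was not made, and the part of plasma cell RNA in the changes was not tested.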

How the data were processed

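Single-cell suspensions of lymph nodes were enriched for PDPN with a biotinylated antibody and magnetic selection and sequenced as 16 libraries. The deposited values are UMI counts per gene and barcode, made by the authors with Cell Ranger 3.0.1 on mm10 per the submitters' processing notes, and they are not normalized. The authors judged doublets from UMIs and genes per cell and saw no sign of them, and no correction for ambient RNA is given in the sources used here. The naive samples carry the same cell line tag, MC38, as the others, and were grouped by their titles.

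Barcodes with 200 to 6000 genes and at most 30% mitochondrial counts were kept. A cell was given a type when it held at least 3 distinct markers of it, at least 1 more than of related and 2 more than of other types, and subsets were taken by mean z score of their markers (at least 0.5, margin 0.25). This rule was settled after the cells were seen, 13272 cells (26.3%) stayed without a type, and 1583 fibroblastic cells and 1084 LECs lay within 0.1 of the subset limit. Cells with markers of several lineages (2668) were left out, and no doublet caller was run. Counts were summed per library and type, with at least 10 cells.

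Tests used edgeR 4.0.16 in R 4.3.3 (TMM, filterByExpr, robust quasi-likelihood fit of all 5 groups), with Benjamini-Hochberg adjustment over all genes tested and a threshold of 0.05. SE is the log2 fold change divided by the root of F. Groups without overlap for a called gene describe the libraries that gave the call and are not further support for it. Plasma against B cells and fibroblastic cells against LECs had library as a block. DESeq2 1.42.0 was an alternative, beside DESeq2's kind of size factors in edgeR, no filter on low counts, a stricter gate, at most 10% mitochondrial counts, at most 50 cells per library, only the groups compared, a replicate block and leaving out each library. Scripts were tested on simulated data. The study's own comparison of cells within each inoculum was not repeated, as cells are not replicates.

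The members and gene lists were chosen with earlier results of these data known. Values per library are given for 5 UPR genes, for up to 8 called members with the smallest p in fibroblastic cells and LECs and up to 3 elsewhere, and for members called against the majority; Hspa5 in fibroblastic cells and other single values were added after they were seen. Promoters came from RefSeq (GRCm38.p6) and gene positions from the GENCODE annotation of GRCm38.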

Additional observations from a re-analysis of the deposited data

Results flagged for a closer look

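The draining effect of live MC38 cells differed from that of fixed cells, by a test of the difference between both effects (edgeR, adjusted p under 0.05), for 12 members in fibroblastic cells. On the log2 scale, live minus fixed, the differences were 0.60 for Ssr2, 0.65 for Dnajb11, 0.52 for Ssr4, 0.46 for Ostc, 0.50 for Manf, 0.53 for Sdf2l1, 0.32 for Pdia6, 0.34 for Spcs2, 0.50 for Kdelr3, 0.43 for Sec61b, 0.29 for Spcs1 and 0.35 for Calr. Every one of the 12 had a larger live effect.

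In LECs the same test singled out 22 members. The differences were 0.98 for Sec11c, 0.73 for Manf, 0.60 for Hspa5, 0.52 for Spcs1, 0.64 for Ssr2, 0.55 for Ostc, 0.61 for Ssr4, 0.51 for Sec61b, 0.50 for Calr, 0.43 for Pdia3 and 0.39 for Sec61a1. They were 0.65 for Sdf2l1, 0.34 for Pdia6, 0.32 for Xbp1, 0.32 for Spcs2, 0.49 for Dnajb11, 0.40 for Ddost, 0.32 for Pdia4, 0.21 for Dnajc3, 0.28 for Rpn1 and 0.42 for Creld2. Herpud1 stood on the other side at -0.43. Creld2 was the member with a larger live effect in LECs that had not passed the test between live draining and live non-draining nodes.

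A sample far from the others was looked for in the naive group, the only one with 4 libraries. Naive B was the highest of the 4 LEC libraries for Canx (466 CPM), Hsp90b1 (1025 CPM) and Manf (212 CPM), with a gap to the next library that took up most of the group's range. These are 3 of 82 groups tested, where chance alone gives about 5%.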

How the results depend on the processing

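Letters were taken to pair libraries only where every same-letter correlation was above 0.1, which neither live nor fixed nodes met. The correlations of same-letter deviations from the group means in live nodes were -0.07, -0.08 and 0.02 in fibroblastic cells and -0.21, -0.15 and -0.29 in LECs. In fixed nodes they were 0.13, 0.11 and 0.05, and 0.03, 0.11 and 0.17, all positive and with each library closest to its own letter, a hint from the data and not from the labels. With a replicate block 19 fibroblastic members (17 higher, 2 lower) and 26 LEC members (25 higher, 1 lower) passed between live draining and non-draining nodes, and 12 and 21 in the differences from fixed cells. The block moved a count by more than 1.5 times only in plasma cells (5 against 3).

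Under DESeq2, other size factors, no filter, the stricter gate, the mitochondrial limit and the 2 groups alone, the live counts were 18 to 21 in fibroblastic cells (20 in the report) and 21 to 28 in LECs (28). With at most 50 cells per library they were 2 and 4, against naive 0 and 4, in both differences 0, and 3 in BECs, 3 in T cells, 5 in plasma cells, 0 in macrophages and 0 in TRC-like cells. That setting uses fewer cells, and under it 17 single values changed sign. In fibroblastic cells these were Creld2 at -0.026 against live non-draining and -0.33 against naive. In LECs they were, against live non-draining, Canx -0.070, Sdf2l1 -0.0098, P4hb -0.14, Sec61a1 -0.11, Spcs2 -0.16 and Kdelr2 -0.10, and against naive P4hb -0.11, Sec61a1 -0.070, Spcs2 -0.092, Kdelr2 -0.020 and Sec23b -0.047. In the LEC difference they were Sdf2l1 -0.12, Dnajc3 -0.041, Spcs2 -0.33 and Ddost -0.022.

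BECs had 3 calls with DESeq2, 2 without a filter, 2 under the stricter gate, 0 with at most 10% mitochondrial counts and 0 with the 2 groups alone. T cells had 3 under the mitochondrial limit, B cells 1 (lower) and plasma cells 10 with the groups compared alone, macrophages 6 without a filter, and TRC-like cells 3 with DESeq2 and 2 with the groups alone. The cause of these changes was not tested. Leaving out 1 library gave 18 to 20 live members in fibroblastic cells and 21 to 29 in LECs, 7 to 13 and 18 to 23 in the differences, 17 to 20 and 19 to 24 against naive, 0 to 4 in BECs, 3 to 7 in T cells, 0 to 1 in plasma cells, 2 to 4 in macrophages, 0 to 1 in dendritic cells, 8 to 12 in MRC-like, 1 to 6 in TRC-like, 11 to 15 in fLEC-like and 9 to 15 in cLEC-like cells. Called in every alternative were Pdia6 and Ssr4 in live fibroblastic cells and Manf, Ostc, Sec61b and Ssr4 in live LECs. With immunoglobulin genes left out, chosen after seeing the data, 39 members were higher in plasma than in B cells. Depth limits plasma cells (435) and BECs (641) most.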
